A study of Sus scrofa with 12 samples.

Results

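Solute carriers that move sugars, carboxylates, ions, metals, vitamins, mitochondrial metabolites and nucleotide sugars were followed in porcine oviduct epithelial cells and in spheroids made from them. Members were taken by symbol alone: every gene row named for a member of the SLC2A, SLC4A, SLC5A, SLC9A, SLC11A, SLC12A, SLC16A (without SLC16A10), SLC19A, SLC20A, SLC22A, SLC25A, SLC26A, SLC27A, SLC29A, SLC30A, SLC35A to SLC35G, SLC37A, SLC39A, SLC40A or SLC44A families. The rule found 150 rows among 30461 gene rows, with 149 symbols, because SLC39A14 stood on 2 rows. Of these, 116 passed the filter on low counts and were tested among 14070 tested genes. The other 34 were not tested: 1 of them (SLC22A8) was at 0 in every library, 16 never rose above 3 counts in any library, and 17 were above 3 counts in some.

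Solute carriers are membrane proteins that pass small molecules across the plasma membrane or the membranes of organelles. The oviduct epithelium uses them to set the sugars, lactate, bicarbonate, chloride and metals of the fluid that surrounds gametes and early embryos. Members of the SLC25 family sit in the inner mitochondrial membrane and exchange nucleotides, phosphate, amino acids and cofactors with the cytosol, and SLC35 members mostly carry nucleotide sugars into the Golgi apparatus and the endoplasmic reticulum, where glycans are built.

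RNA was measured by 3′ mRNA sequencing of whole samples in 12 libraries, 4 in each of 3 groups. The fresh cells were scraped from pig oviducts and sampled as single cells. The spheroids, which are rounded cell clusters, were formed from oviduct epithelial cells either in DMEM/F12 medium or in a medium named incubation medium, and the library names add FBS to the first kind and Diff to the second. The labels do not give the composition of either medium, the culture time, the animals' strain, age or cycle stage, or whether the replicates came from separate animals or cultures, so p-values measure the spread between these libraries only.

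Library totals ran from 5045187 to 8603774 counts, and 3 counts were worth 0.348 to 0.588 CPM (a gene's counts relative to the TMM-scaled size of its library). The epithelial marker rows (6 rows for EPCAM, KRT8, KRT18, CDH1 and CLDN4) summed to 3727 to 4372 CPM in fresh cells, against 5956 to 7393 in DMEM/F12 spheroids and 4141 to 6147 in incubation medium spheroids, so markers of the labelled cell type were present in every library; 5 rose and 1 fell in DMEM/F12 spheroids, and 4 rose and 1 fell in incubation medium spheroids. All 6 tested multiciliated cell markers fell in both spheroid groups, from a sum of 1100.1 to 1255 CPM to 125 to 316 and 125 to 225. Of the 3 tested secretory cell markers 2 fell and 1 rose in each (a sum of 18938 to 29977 CPM, against 984 to 2016 and 963 to 2009.9), and all 7 proliferation markers rose (22.6 to 35.9 CPM, against 248 to 291 and 301 to 437). Stroma markers summed to 253 to 415, 1074 to 1223 and 233 to 542 CPM in the same order of groups. The sum did not follow the single markers: of 6 tested stroma markers 1 rose and 2 fell in DMEM/F12 spheroids (median log2 fold change -0.38), and 1 rose and 4 fell in incubation medium spheroids (median -1.99). Leukocyte markers summed to 1875 to 2185, 1520 to 1777 and 1970 to 2214.4, endothelial markers to 39.7 to 55.9, 136 to 251 and 91.1 to 148, and red cell markers to at most 0.232. In samples of whole cell mixtures, fewer cells of a type and less RNA per cell cannot be told apart, and the part of these shifts in the carriers' values was not tested.

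A gene is called below where its adjusted p was under 0.05 in edgeR's quasi-likelihood test with Benjamini-Hochberg adjustment over all 14070 tested genes. In DMEM/F12 spheroids 82 of the 116 tested carriers were called against fresh cells (70.7%), the same share as among all tested genes (70.7%). Of them 51 were higher (44%, against 35.1% of all tested genes) and 31 were lower (26.7%, against 35.7%). In incubation medium spheroids 86 carriers were called (74.1%, against 71.7% of all tested genes), 55 higher (47.4%, against 35.8%) and 31 lower (26.7%, against 35.8%). The median log2 fold change of the tested carriers was 0.30 in the DMEM/F12 group and 0.28 in the incubation medium group, beside -0.01 over all tested genes in each. Over the carriers whose counts were whole in every library these medians were 0.099 and 0.37. The total number of calls was therefore near the background in both, and the 2 comparisons share the 4 fresh cell libraries.

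Changes of at least 2-fold were fewer. In DMEM/F12 spheroids 33 carriers were called and at least 2-fold apart from fresh cells (28.4%, against 35.4% of all tested genes). Of the tested carriers 18 were higher (15.5%, against 15.1%) and 15 lower (12.9%, against 20.3%). In incubation medium spheroids 41 were called and at least 2-fold apart (35.3%, against 36.8%), with 22 higher (19%, against 15.3%) and 19 lower (16.4%, against 21.5%). The groups did not overlap for 75 carriers in the DMEM/F12 comparison (64.7%, against 65.4% of all tested genes) and for 79 in the incubation medium comparison (68.1%, against 65% of all tested genes). Carriers took 0.430 to 0.464% of the counts in fresh cells, against 0.531 to 0.564% in DMEM/F12 spheroids and 0.607 to 0.625% in incubation medium spheroids. The phosphate carrier SLC25A3 and the ADP/ATP carriers SLC25A5 and SLC25A6 made up 22.4 to 25.4%, 35.3 to 36.9% and 38.7 to 42.7% of the carriers' summed CPM in these groups, which is a share of counts. Without those 3 genes the sum was 3296 to 3531 CPM in fresh cells, against 3243 to 3543 in DMEM/F12 spheroids and 3634 to 3831 in incubation medium spheroids, so that the DMEM/F12 libraries overlapped the fresh ones.

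**Figure D1:**
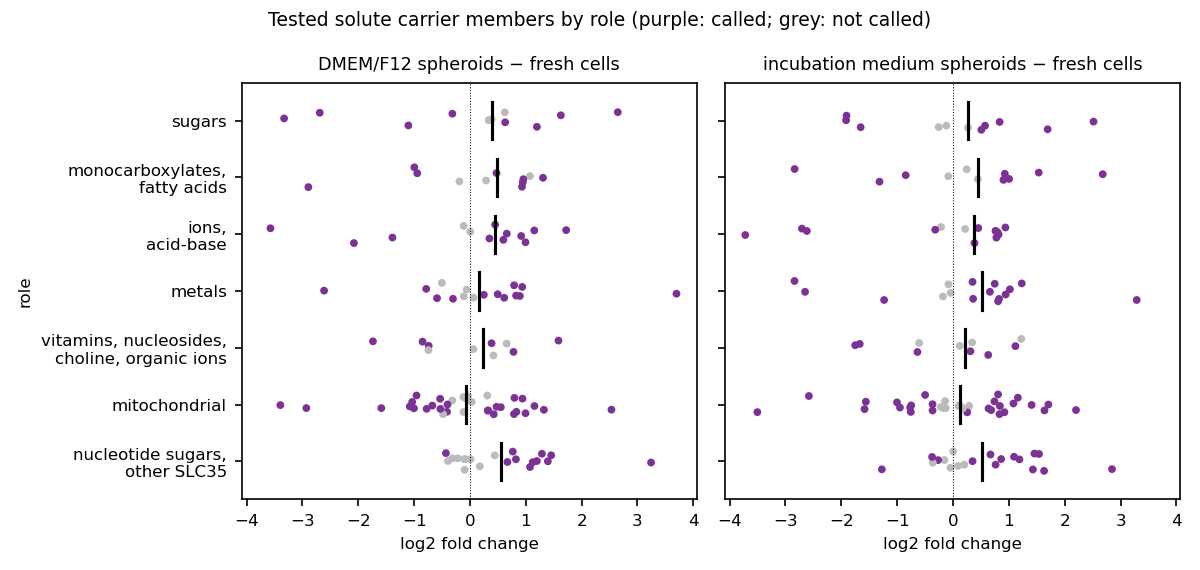
Log2 fold changes of the 116 tested carriers by role, for DMEM/F12 spheroids (left) and incubation medium spheroids (right) against fresh cells; each point is 1 gene row, purple points were called, and black bars are medians. The SLC35 genes lie mostly right of 0, with medians of 0.56 and 0.51, and the mitochondrial genes spread to both sides, with medians of -0.07 and 0.13.

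Among the carriers of the sugar families, the glucose importers moved in opposite directions. Of 11 tested genes, 4 rose and 4 fell in DMEM/F12 spheroids (36.4% each, against 35.1% higher and 35.7% lower among all tested genes), which is near the background. In incubation medium spheroids 5 rose and 3 fell (45.5% and 27.3%, against 35.8% each way). SLC2A3 (ENSSSCG00025015461), a high-affinity glucose transporter, stood at 75.9, 82.9, 72.7 and 64.7 CPM in fresh cells, at 5.96, 8.36, 10.3 and 4.92 in DMEM/F12 spheroids and at 5.13, 16.4, 10.4 and 47.8 in incubation medium spheroids (replicates 1 to 4 in each case). Every spheroid library lay below every fresh library, and incubation medium replicate 4 was the closest to them. SLC2A3 fell by 3.33 ± 0.49 on the log2 scale in DMEM/F12 spheroids (± SE; adjusted p = 3.01e-05) and by 1.91 ± 0.45 in incubation medium spheroids (adjusted p = 0.00153); without incubation medium replicate 4 the second value was -2.79. Between the media the groups overlapped, with a log2 difference of 1.42 (95% interval 0.34 to 2.51, adjusted p = 0.0544).

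SLC5A1 (ENSSSCG00025035995), the sodium-driven glucose and galactose importer of apical membranes, went the other way. It stood at 8.01, 7.17, 7.48 and 4.90 CPM in fresh cells, at 18.003, 46.5, 77.4 and 32.3 in DMEM/F12 spheroids and at 32.2, 45.9, 54.4 and 26.1 in incubation medium spheroids. The spheroid libraries were all above the fresh ones and overlapped each other. The rise was 6.27-fold in DMEM/F12 spheroids (log2 2.65 ± 0.41, adjusted p = 4.34e-05) and 5.72-fold in incubation medium spheroids (2.52 ± 0.41, adjusted p = 7.04e-05).

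SLC2A1 (ENSSSCG00025013928), the widespread basal glucose transporter, varied within the groups. Its values were 100.2, 107, 87.0 and 65.8 CPM in fresh cells, against 132, 136, 131 and 73.2 in DMEM/F12 spheroids and 99.9, 179.6, 119 and 138 in incubation medium spheroids. All 3 groups overlapped, and DMEM/F12 replicate 4 was far below the other 3 of its group. SLC2A1 rose 1.49-fold in incubation medium spheroids (log2 0.57 ± 0.21, adjusted p = 0.0260), whereas the DMEM/F12 difference of 0.39 ± 0.21 had an adjusted p of 0.118; with the replicate number as a block its adjusted p was 0.0445. The incubation medium call was lost without fresh replicate 3 (adjusted p = 0.0527), fresh replicate 4 (0.0819) or incubation medium replicate 2 (0.0901), and the DMEM/F12 difference was called without DMEM/F12 replicate 4 (0.58). Counts of this gene were not whole in 66.7% of the libraries, which means that the authors' counting shared some reads with another feature.

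SLC2A12, another facilitative glucose transporter, fell 6.45-fold in DMEM/F12 spheroids and 3.77-fold in incubation medium spheroids, from 11.2 to 13.8 CPM in fresh cells to 1.06 to 3.14 and 1.54 to 4.43. The myo-inositol importer SLC5A3 fell as well, from 15.9 to 24.9 CPM to 7.08 to 11.3 and 4.43 to 9.42, or by 1.10 and 1.65 on the log2 scale. Its difference between the media was -0.55 ± 0.23 (adjusted p = 0.0921, and 0.0470 with the replicate block), and its counts were not whole in 58.3% of the libraries. SLC2A8, a glucose transporter of intracellular membranes, had 1.61 to 2.78 CPM in fresh cells, against 6.85 to 7.91 in DMEM/F12 spheroids and 3.22 to 4.94 in incubation medium spheroids, with no overlap between any pair of groups. It rose 3.09-fold in DMEM/F12 spheroids and 1.78-fold in incubation medium spheroids, and it was 1.73-fold lower in the second than in the first (log2 -0.79 ± 0.18, adjusted p = 0.00545, and 0.0533 with libraries thinned to the smallest). SLC5A6, which belongs to a sugar family by sequence and carries the vitamins biotin and pantothenate, rose from 17.4 to 23.4 CPM in fresh cells to 45.9 to 54.6 and 61.5 to 75.6, a rise of 2.30-fold and 3.24-fold.

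TXNIP, a regulator that lowers glucose uptake and is no carrier itself, fell from 994 to 1460 CPM in fresh cells to 379 to 682 in DMEM/F12 spheroids and 310 to 519 in incubation medium spheroids. That is a decrease of 2.09-fold and 3.02-fold, with no overlap between fresh cells and either spheroid group.

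Carriers of lactate, pyruvate and fatty acids held 11 tested genes, of which 5 rose and 3 fell in each spheroid group (45.5% and 27.3%). Among all tested genes 35.1% were higher and 35.7% lower in DMEM/F12 spheroids, and 35.8% each way in incubation medium spheroids. SLC16A1 (ENSSSCG00025011524), the proton-coupled lactate and pyruvate carrier found in most cells, stood at 12.1, 11.3, 11.4 and 9.41 CPM in fresh cells, at 14.8, 16.8, 14.2 and 15.7 in DMEM/F12 spheroids and at 31.7, 36.0, 27.4 and 33.6 in incubation medium spheroids. The 3 groups were in this order with no overlap. SLC16A1 rose 1.39-fold in DMEM/F12 spheroids (log2 0.48 ± 0.12, adjusted p = 0.00295) and 2.90-fold in incubation medium spheroids (1.54 ± 0.12, adjusted p = 4.66e-08), and the media differed 2.08-fold (1.06 ± 0.11, adjusted p = 1.79e-05).

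SLC16A3 (ENSSSCG00025072776), the lactate exporter of strongly glycolytic cells, was much more uneven. It stood at 10.1, 11.5, 12.2 and 13.3 CPM in fresh cells, at 17.5, 24.2, 34.4 and 23.1 in DMEM/F12 spheroids and at 14.4, 56.7, 43.9 and 187 in incubation medium spheroids. All 8 spheroid libraries were above the fresh ones, and within the incubation medium group replicate 1 was near the fresh level and replicate 4 was the highest. Replicate 4 was also the highest of that group for SLC2A3, and whether the 2 values are linked was not tested. SLC16A3 rose 6.41-fold in incubation medium spheroids (log2 2.68 ± 0.58, adjusted p = 0.000864), and by 1.72 on the log2 scale without that replicate. The difference between the media, 1.61 ± 0.52 (adjusted p = 0.0374), became 0.63 (adjusted p = 0.195) without that replicate. It also missed the threshold without DMEM/F12 replicate 1 (1.47, adjusted p = 0.0902), 2 (1.60, 0.0808) or 4 (1.58, 0.0822). The same held when only the groups compared were fitted (1.60, adjusted p = 0.0745). In DMEM/F12 spheroids the log2 difference from fresh cells was 1.07 ± 0.60 (adjusted p = 0.123, and 0.0392 with the replicate block). It was called when only the groups compared were fitted (1.08, adjusted p = 0.000431). The fits without incubation medium replicate 1 (1.09, adjusted p = 0.0342) or 4 (1.09, 0.0128) called it as well.

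**Figure D2:**
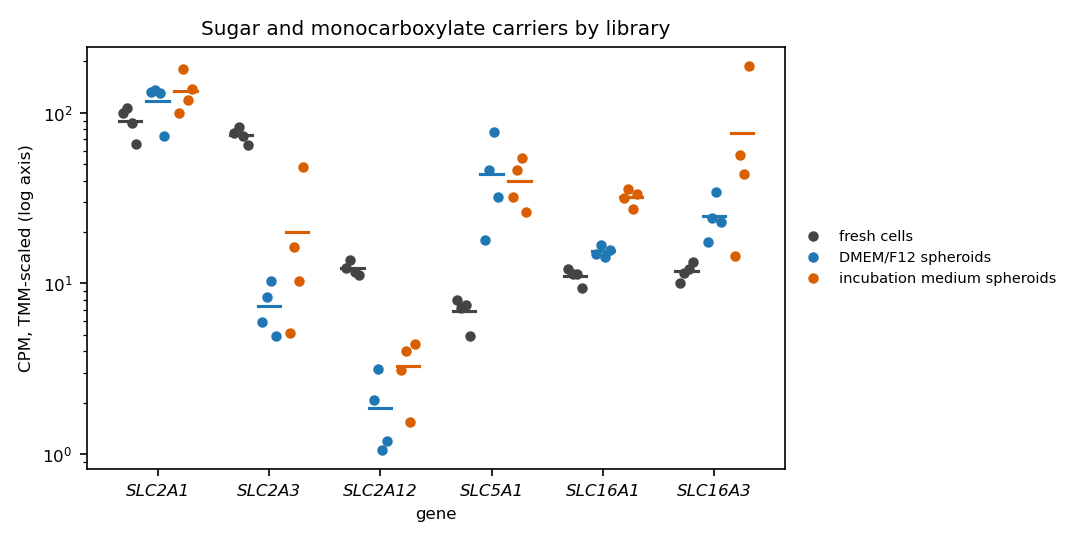
CPM (log axis) of 6 sugar and monocarboxylate carriers in each library; points are the 4 libraries of a group and horizontal lines are group means. SLC2A3 and SLC2A12 lie lower and SLC5A1 higher in both spheroid groups, and the incubation medium points of SLC16A3 run from 14.4 to 187 CPM.

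Fatty acid transport proteins of the SLC27 family, which take up long-chain fatty acids and join them to coenzyme A, split by member. SLC27A1 fell from 25.1 to 30.2 CPM in fresh cells to 11.6 to 15.5 in DMEM/F12 spheroids and 7.51 to 15.9 in incubation medium spheroids, or 1.92-fold and 2.49-fold. SLC27A4 rose from 14.5 to 19.3 CPM to 30.3 to 36.6 and 27.6 to 43.96, or 1.93-fold and 2.01-fold; its counts were not whole in 66.7% of the libraries. SLC27A3, with the same share, fell by 1.00 and 0.85 on the log2 scale. Outside the naming rule, and chosen after their values were seen, SLC16A9 fell by 2.89 and 2.84, and SLC16A11 was higher in DMEM/F12 spheroids than in fresh cells (log2 1.31 ± 0.37, adjusted p = 0.00525) and lower in incubation medium than in DMEM/F12 spheroids (-1.39 ± 0.35, adjusted p = 0.0103), with overlapping libraries both times. SLC16A11 and SLC16A13 are neighbouring genes in the RefSeq table for Sscrofa11.1; SLC16A13 rose by 0.96 and 0.90 and did not pass the test between the media (-0.05 ± 0.15).

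Of 13 tested ion and acid-base carriers, 8 rose (61.5%, against 35.1% of all tested genes) and 3 fell (23.1%, against 35.7%) in DMEM/F12 spheroids. In incubation medium spheroids 7 rose (53.8%) and 4 fell (30.8%), against 35.8% of all tested genes each way; whether the group differs from other genes was not tested. SLC20A1 (ENSSSCG00025004253), a sodium-driven phosphate importer, stood at 35.3, 39.3, 26.4 and 22.1 CPM in fresh cells, at 83.1, 106, 133 and 85.1 in DMEM/F12 spheroids and at 52.5, 68.2, 71.1 and 44.7 in incubation medium spheroids. The fresh cells were lowest, the DMEM/F12 spheroids highest, and none of the 3 groups overlapped. It rose 3.30-fold in DMEM/F12 spheroids (log2 1.72 ± 0.21, adjusted p = 3.58e-06) and 1.92-fold in incubation medium spheroids (0.94 ± 0.21, adjusted p = 0.000902), and was 1.72-fold lower in the second (-0.78 ± 0.19, adjusted p = 0.00876).

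Anion exchangers of the SLC4 family, which swap chloride for bicarbonate, moved apart. SLC4A2 rose from 47.2 to 51.2 CPM in fresh cells to 68.7 to 94.2 in DMEM/F12 spheroids and 76.2 to 91.1 in incubation medium spheroids, or 1.58-fold and 1.70-fold. SLC4A3 (ENSSSCG00025011226) had 9.05, 9.15, 16.8 and 8.23 CPM in fresh cells, against 4.50, 4.18, 3.70 and 4.08 in DMEM/F12 spheroids and 2.03, 1.74, 1.48 and 1.75 in incubation medium spheroids. Its groups did not overlap, and fresh replicate 3 was the highest library. SLC4A3 fell by 1.39 ± 0.23 (adjusted p = 6.97e-05) and 2.62 ± 0.25 (adjusted p = 3.90e-07) on the log2 scale, and the media differed by -1.23 ± 0.26 (adjusted p = 0.00343). The sodium bicarbonate cotransporter SLC4A4 rose 1.51-fold in DMEM/F12 spheroids, from 33.2 to 35.7 CPM to 39.4 to 60.2, while its 36.5 to 43.2 CPM in incubation medium spheroids gave a log2 difference of 0.22 ± 0.12 from fresh cells (adjusted p = 0.117). SLC4A4 was called lower in incubation medium than in DMEM/F12 spheroids, with overlapping libraries. That call was lost when only the groups compared were fitted (log2 -0.38, adjusted p = 0.0530). It was also lost without DMEM/F12 replicate 2 (-0.30) or 3 (-0.32), or incubation medium replicate 1 (-0.37), 3 (-0.39) or 4 (-0.34).

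Pendrin, SLC26A4 (ENSSSCG00025063557), an exchanger of chloride, iodide and bicarbonate, was low throughout. It had 2.26, 1.79, 2.62 and 4.31 CPM in fresh cells, against 0.122, 0.116, 0 and 0.600 in DMEM/F12 spheroids and 0.239, 0.400, 0 and 0.134 in incubation medium spheroids. The incubation medium libraries were all at or under 3 counts, which makes the gene at least 7.18-fold lower there than in fresh cells (group means against the floor). In DMEM/F12 spheroids replicate 4 alone was above 3 counts; the fitted log2 difference was -3.57 ± 0.60 (adjusted p = 0.000101), and -4.77 without that replicate.

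Among the cation chloride cotransporters, SLC12A7, which carries potassium and chloride out of the cell, was lower in incubation medium spheroids. It stood at 71.7, 71.7, 71.6 and 78.2 CPM in fresh cells, at 68.6, 66.3, 88.9 and 70.4 in DMEM/F12 spheroids and at 62.2, 61.5, 56.7 and 54.8 in incubation medium spheroids. The incubation medium libraries lay below all others, with a log2 difference of -0.32 ± 0.096 from fresh cells (adjusted p = 0.00828) and -0.32 ± 0.095 from DMEM/F12 spheroids (adjusted p = 0.0226). The second call was lost without DMEM/F12 replicate 3 (-0.22), incubation medium replicate 3 (-0.30) or incubation medium replicate 4 (-0.29). The related SLC12A4 rose by 1.15 and 0.80 on the log2 scale in DMEM/F12 and incubation medium spheroids. SLC12A5, best known from neurons and chosen after its values were seen, fell from 1.91, 2.15, 7.29 and 2.35 CPM in fresh cells to 0.465 to 1.216 and 0.239 to 0.862; the log2 change of -2.08 in DMEM/F12 spheroids was -1.40 without fresh replicate 3, and that of -2.705 in incubation medium spheroids was -2.03.

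Genes that act with these ion carriers moved too. WNK4, a kinase that controls chloride cotransporters, had 11.7, 23.6, 17.95 and 14.9 CPM in fresh cells, against 2.31, 4.18, 6.48 and 4.68 in DMEM/F12 spheroids and 0.239, 0.801, 0.985 and 0.537 in incubation medium spheroids. The groups did not overlap, and WNK4 fell by 1.95 ± 0.30 and 4.70 ± 0.39 on the log2 scale, with a difference of -2.75 ± 0.42 between the media (adjusted p = 0.000351). The kinases STK39 and OXSR1, which WNK kinases activate, rose 2.56-fold and 1.47-fold in DMEM/F12 spheroids and 4.04-fold and 1.90-fold in incubation medium spheroids. CFTR, the chloride and bicarbonate channel, rose from 9.21 to 12.6 CPM to 20.3 to 37.5 and 23.8 to 34.7, or 2.89-fold and 2.85-fold; its counts were not whole in 66.7% of the libraries.

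Of 16 tested metal carrier rows, 8 rose and 4 fell in DMEM/F12 spheroids (50% and 25%, against 35.1% and 35.7% of all tested genes), and 10 rose and 3 fell in incubation medium spheroids (62.5% and 18.8%, against 35.8% each way). Between the media 4 rows were called (25%, against 25% of all tested genes): the zinc carriers SLC39A10 and SLC39A7 were higher and SLC30A1 and SLC39A11 lower in incubation medium. The SLC39A7 call was lost with library totals in place of TMM (log2 0.19, adjusted p = 0.135) or no filter on low counts (0.28, 0.0654). It was also lost without DMEM/F12 replicate 1, 3 or 4, or incubation medium replicate 3 or 4 (0.21 to 0.29). That of SLC39A11 was lost without DMEM/F12 replicate 4 (-0.41), or incubation medium replicate 2 (-0.43) or 3 (-0.40). SLC30A1 (ENSSSCG00025068768), the zinc exporter of the plasma membrane, stood at 35.7, 31.9, 45.4 and 38.6 CPM in fresh cells, at 27.4, 21.7, 28.1 and 23.7 in DMEM/F12 spheroids and at 4.77, 4.00, 5.42 and 6.99 in incubation medium spheroids. The 3 groups did not overlap. SLC30A1 fell 1.505-fold in DMEM/F12 spheroids (log2 -0.59 ± 0.14, adjusted p = 0.00202) and 7.15-fold in incubation medium spheroids (-2.84 ± 0.17, adjusted p = 3.70e-09), and it was 4.75-fold lower in incubation medium than in DMEM/F12 spheroids (-2.25 ± 0.17, adjusted p = 1.35e-06).

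The zinc importer SLC39A10 (ENSSSCG00025069485) moved the opposite way in incubation medium. Its values were 32.0, 34.6, 40.01 and 38.0 CPM in fresh cells, against 26.3, 29.3, 33.1 and 28.6 in DMEM/F12 spheroids and 73.7, 97.8, 96.2 and 71.7 in incubation medium spheroids. Every incubation medium library was above all 8 others, while fresh cells and DMEM/F12 spheroids overlapped. SLC39A10 rose 2.35-fold against fresh cells (log2 1.23 ± 0.12, adjusted p = 5.38e-07) and was 2.90-fold higher than in DMEM/F12 spheroids (1.53 ± 0.12, adjusted p = 2.57e-06). It was the 1 carrier called lower in DMEM/F12 spheroids (-0.30 ± 0.13, adjusted p = 0.0424) and higher in incubation medium spheroids; the first of these calls was lost in 10 of 20 alternative settings, with adjusted p from 0.0106 to 0.145. Among them were the fits without fresh replicate 2, 3 or 4, DMEM/F12 replicate 1, 2 or 4, or incubation medium replicate 1, where the log2 difference ran from -0.32 to -0.24.

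Metallothioneins, small proteins that bind zinc and are induced by it, were on the list of partner genes. MT2A had 974, 861, 845 and 1206 CPM in fresh cells, against 1833, 1003, 759.8 and 1525 in DMEM/F12 spheroids and 453, 265, 225 and 536 in incubation medium spheroids. The incubation medium libraries were below all others, and the other groups overlapped. MT2A fell by 1.39 ± 0.29 against fresh cells (adjusted p = 0.000618) on the log2 scale, and the media differed by -1.79 ± 0.29 (adjusted p = 0.000580). MT1A fell by 0.84 ± 0.31 against fresh cells (adjusted p = 0.0246) and had a log2 difference of -1.10 ± 0.31 between the media (adjusted p = 0.0175). Its libraries overlapped in both comparisons. Counts of both metallothioneins were not whole in 100% of the libraries, so reads may be divided among near-identical copies. MTF1, the zinc-sensing factor that drives SLC30A1 and metallothionein genes, was 1.35-fold lower in incubation medium than in DMEM/F12 spheroids (log2 -0.43 ± 0.10, adjusted p = 0.00608). Against fresh cells MTF1 was not called in incubation medium spheroids (-0.12 ± 0.10, adjusted p = 0.301). In DMEM/F12 spheroids it rose (0.31 ± 0.10, adjusted p = 0.0143).

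Other zinc carriers of the SLC39 family mostly rose. SLC39A7, which releases zinc from the endoplasmic reticulum and Golgi, stood at 106 to 123 CPM in fresh cells, against 114 to 127 in DMEM/F12 spheroids and 130 to 169 in incubation medium spheroids. It rose 1.27-fold in incubation medium spheroids (log2 0.35 ± 0.089, adjusted p = 0.00278), and its DMEM/F12 difference was 0.06 ± 0.089 (adjusted p = 0.542). SLC39A14, a carrier of zinc, iron and manganese, rose on both of its rows: by 0.83 and 0.66 on the log2 scale on the row with 9.80 to 11.97 CPM in fresh cells (ENSSSCG00025025098), and by 0.50 and 0.94 on the row with 3.74 to 7.71 CPM (ENSSSCG00025026238). The DMEM/F12 call of the second row was lost without fresh replicate 1 (0.47), fresh replicate 3 (0.36), fresh replicate 4 (0.47) or DMEM/F12 replicate 4 (0.46). It was also lost when only the groups compared were fitted (0.50, adjusted p = 0.0503). SLC39A11 was an exception, falling from 45.2 to 63.4 CPM in fresh cells to 24.1 to 31.6 and 19.2 to 23.5, or 1.72-fold and 2.35-fold. SLC30A3, a vesicular zinc carrier known from synapses, had 81.5 to 105 CPM in fresh cells, against 87.5 to 93.3 in DMEM/F12 spheroids and 85.2 to 104 in incubation medium spheroids, and passed no test.

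Ferroportin, SLC40A1 (ENSSSCG00025030581), the known cellular iron exporter, fell in both kinds of spheroid. It stood at 54.7, 44.3, 36.8 and 44.2 CPM in fresh cells, at 12.3, 6.56, 5.56 and 4.92 in DMEM/F12 spheroids and at 10.9, 7.94, 3.57 and 6.18 in incubation medium spheroids. The spheroid groups overlapped each other and lay wholly below the fresh cells. The fall was 6.11-fold in DMEM/F12 spheroids (log2 -2.61 ± 0.30, adjusted p = 2.16e-06) and 6.27-fold in incubation medium spheroids (-2.65 ± 0.30, adjusted p = 1.93e-06), and the media differed by -0.04 (95% interval -0.73 to 0.65).

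Several genes of iron uptake and storage rose, while TFR2, the other transferrin receptor, fell by 0.95 and 1.37 on the log2 scale. TFR2 was low, at 0.463 to 1.39 CPM in DMEM/F12 and 0.369 to 1.001 in incubation medium spheroids. Its DMEM/F12 libraries overlapped the fresh ones (adjusted p = 0.0486), and incubation medium replicate 3 was at the floor of 3 counts. TFRC, the transferrin receptor, had 16.5, 13.3, 14.2 and 13.3 CPM in fresh cells, against 50.2, 49.3, 57.7 and 42.0 in DMEM/F12 spheroids and 89.8, 124, 137 and 57.2 in incubation medium spheroids. It rose 3.46-fold and 7.10-fold and was 2.05-fold higher in incubation medium than in DMEM/F12 spheroids (log2 1.03 ± 0.20, adjusted p = 0.00212), although incubation medium replicate 4 lay within the DMEM/F12 range. The ferritin subunits FTL and FTH1, which store iron, rose 3.53-fold and 1.44-fold in DMEM/F12 spheroids and 3.78-fold and 1.52-fold in incubation medium spheroids; counts of both were not whole in 91.7% of the libraries. ACO1, the cytosolic aconitase that also acts as an iron regulatory protein, rose from 63.2 to 79.0 CPM to 339 to 465 and 554 to 631, or 5.29-fold and 8.32-fold. NCOA4, which delivers ferritin for breakdown, rose 1.54-fold and 1.75-fold, and the iron reductase STEAP3 rose 2.87-fold and 2.57-fold.

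SLC11A1, a divalent metal carrier of phagocyte vesicles chosen after its values were seen, had 0.870, 0, 0 and 0 CPM in fresh cells, against 3.16, 5.92, 1.98 and 1.56 in DMEM/F12 spheroids and 2.27, 4.67, 2.09 and 0.537 in incubation medium spheroids. Fresh replicate 1 alone was above 3 counts in its group, and the fitted log2 changes of 3.70 and 3.29 became 7.54 and 7.14 without it, which are no bounds because the remaining fresh libraries are all at 0. Of the 4 tested leukocyte markers none rose in DMEM/F12 or incubation medium spheroids against fresh cells, while 3 and 2 fell. The sum over all 5 leukocyte marker rows was 1875 to 2185 CPM in fresh cells. It was 1520 to 1777 in DMEM/F12 spheroids and 1970 to 2214.4 in incubation medium spheroids. Which cells carried SLC11A1 was not tested.

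**Figure D3:**
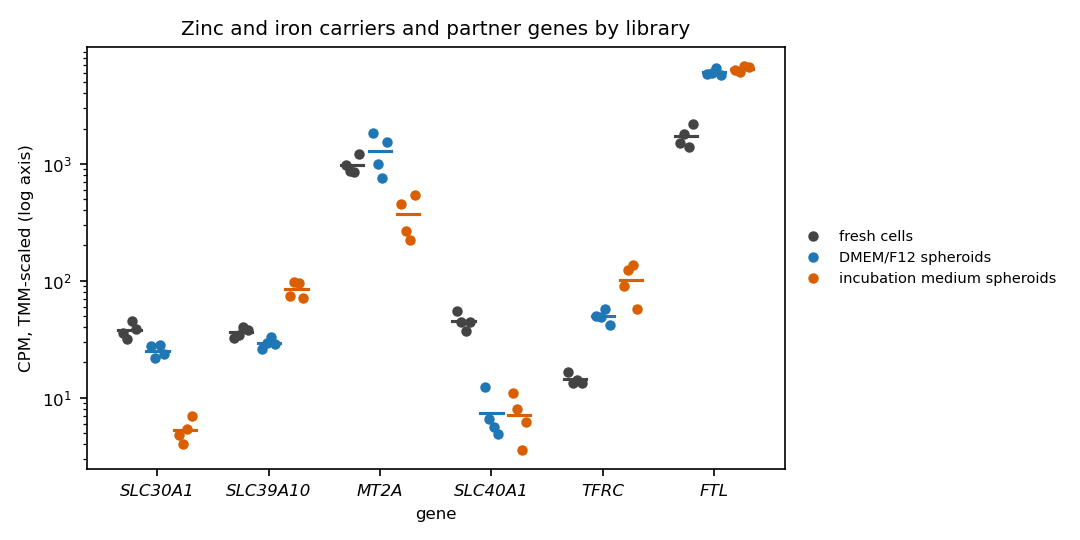
CPM (log axis) of 3 zinc and iron carriers and 3 partner genes in each library; points are the 4 libraries of a group and lines are group means. In incubation medium SLC30A1 (4.00 to 6.99 CPM) and MT2A lie below and SLC39A10 (71.7 to 97.8 CPM) above both other groups, and SLC40A1 is low in both spheroid groups.

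Carriers of vitamins, nucleosides, choline and organic ions numbered 10 tested genes, with 3 higher and 3 lower in each spheroid group (30% each way). Among all tested genes the shares were 35.1% higher and 35.7% lower in DMEM/F12 spheroids and 35.8% each way in incubation medium spheroids. The choline-like carrier SLC44A4 (ENSSSCG00025074458), which moves thiamine pyrophosphate, separated the media. It stood at 311, 235, 247 and 219 CPM in fresh cells, at 193, 122, 123 and 123 in DMEM/F12 spheroids and at 349, 259, 268 and 223 in incubation medium spheroids. Only the DMEM/F12 libraries stood apart, below all others, with replicate 1 the highest of them. SLC44A4 fell 1.80-fold in DMEM/F12 spheroids (log2 -0.85 ± 0.17, adjusted p = 0.000489) and was 1.96-fold higher in incubation medium than in DMEM/F12 spheroids (0.97 ± 0.17, adjusted p = 0.000974). Its difference between incubation medium spheroids and fresh cells was 0.12 (95% interval -0.24 to 0.49), and its counts were not whole in 50% of the libraries.

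The choline carrier SLC44A1 had 255, 261, 259 and 292 CPM in fresh cells, against 168, 146, 162 and 164 in DMEM/F12 spheroids and 168, 183, 165 and 169.7 in incubation medium spheroids. It fell 1.67-fold and 1.55-fold with no overlap. SLC19A2, a thiamine importer, fell further, from 93.8, 80.5, 82.3 and 47.0 CPM to 22.6, 19.98, 30.3 and 18.5 in DMEM/F12 spheroids and 23.5, 22.8, 28.6 and 20.6 in incubation medium spheroids. Fresh replicate 4 was the lowest fresh library and still above all spheroids, and the fall was 3.33-fold and 3.18-fold. Equilibrative nucleoside transporters rose or fell by member. SLC29A3, chosen after its values were seen, rose by 0.78 and 1.12 on the log2 scale in DMEM/F12 and incubation medium spheroids. Both calls were kept in all 20 alternative settings. Its call between the media (0.34, adjusted p = 0.0351) was lost in 9 of 20. Among them were the fits without DMEM/F12 replicate 1, 2 or 3, or incubation medium replicate 2, 3 or 4 (0.31 to 0.35). SLC29A1 rose 1.55-fold in incubation medium spheroids with overlapping libraries (log2 0.63 ± 0.24, adjusted p = 0.0314). That call was lost without fresh replicate 3 (0.45), incubation medium replicate 2 (0.58) or incubation medium replicate 3 (0.57). Thinning to the smallest library lost it too (0.46, adjusted p = 0.141). SLC29A4 fell by 1.75 ± 0.51 in incubation medium spheroids (adjusted p = 0.00659), or by 2.38 without incubation medium replicate 4. In DMEM/F12 spheroids the log2 difference of SLC29A4 was -0.74 ± 0.47 (adjusted p = 0.166, and 0.0309 with the replicate block), and between the media it was -1.01 ± 0.51 (adjusted p = 0.173, and 0.0170 with the block). The block also added calls in incubation medium spheroids for the organic ion carriers SLC22A13 (1.223 ± 0.57, adjusted p = 0.0659, and 0.0345 with the block) and SLC22A15 (0.34 ± 0.16, adjusted p = 0.0608, and 0.0473 with the block). SLC22A4, a carrier of ergothioneine and carnitine chosen after its values were seen, had 0.196 to 1.26 CPM in fresh cells, against 1.28 to 3.00 in DMEM/F12 spheroids and 0.239 to 0.873 in incubation medium spheroids; it was called higher in DMEM/F12 spheroids (log2 1.59 ± 0.47) and lower in incubation medium than in DMEM/F12 spheroids (-2.19 ± 0.47).

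Of 35 tested mitochondrial carriers of the SLC25 family, 13 rose and 13 fell in DMEM/F12 spheroids (37.1% each, against 35.1% higher and 35.7% lower among all tested genes). In incubation medium spheroids 14 rose and 12 fell (40% and 34.3%, against 35.8% each way), so both splits were near the background. The abundant carriers of oxidative phosphorylation were among those that rose. SLC25A6 (ENSSSCG00025042789), an ADP/ATP exchanger, stood at 582, 522, 663 and 623 CPM in fresh cells, at 1113, 1176, 1149.9 and 1147 in DMEM/F12 spheroids and at 1619, 1436, 1542 and 1743 in incubation medium spheroids. The groups followed one another with no overlap. It rose 1.92-fold (log2 0.94 ± 0.086, adjusted p = 2.52e-07) and 2.65-fold (1.41 ± 0.087, adjusted p = 5.68e-09), with a difference of 0.47 ± 0.085 between the media (adjusted p = 0.00123); its counts were not whole in 75% of the libraries.

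SLC25A5 (ENSSSCG00025071021), the ADP/ATP exchanger of dividing cells, had whole counts throughout. Its values were 87.0, 72.8, 79.3 and 66.6 CPM in fresh cells, against 178, 165, 182 and 156 in DMEM/F12 spheroids and 253, 247, 280.4 and 219 in incubation medium spheroids. It rose 2.23-fold and 3.27-fold and was 1.47-fold higher in incubation medium than in DMEM/F12 spheroids (log2 0.55 ± 0.097, adjusted p = 0.000926), again with no overlap. The isoform of heart and muscle, SLC25A4, moved against the other ADP/ATP exchangers: it had 30.5 to 35.3 CPM in fresh cells, against 22.6 to 27.3 in DMEM/F12 spheroids and 24.3 to 30.5 in incubation medium spheroids. SLC25A4 fell by 0.41 ± 0.10 on the log2 scale in DMEM/F12 spheroids (adjusted p = 0.00223), and its difference in incubation medium spheroids was -0.22 ± 0.10 (adjusted p = 0.0655, and 0.0410 with the replicate block). The phosphate carrier SLC25A3 rose from 400 to 443 CPM to 525 to 606 and 692 to 834, or 1.39-fold and 1.78-fold.

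Calcium-regulated carriers of ATP-magnesium and phosphate moved far, and in opposite directions. SLC25A24 (ENSSSCG00025015118) stood at 17.1, 15.8, 15.99 and 18.4 CPM in fresh cells, at 91.5, 99.3, 108 and 91.6 in DMEM/F12 spheroids and at 76.6, 85.0, 80.0 and 68.4 in incubation medium spheroids. All spheroid libraries were far above the fresh ones, and the incubation medium libraries lay just below the DMEM/F12 ones. SLC25A24 rose 5.79-fold (log2 2.53 ± 0.098, adjusted p = 1.01e-10) and 4.60-fold (2.20 ± 0.098, adjusted p = 3.07e-10), with -0.33 ± 0.086 between the media (adjusted p = 0.0118).

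SLC25A25 (ENSSSCG00025046230) had 198, 202, 140.2 and 124 CPM in fresh cells, against 18.003, 22.3, 21.8 and 24.97 in DMEM/F12 spheroids and 25.4, 29.1, 29.9 and 26.6 in incubation medium spheroids. Fresh replicates 1 and 2 were the highest, and every spheroid library was below all fresh ones. It fell 7.62-fold (log2 -2.93 ± 0.16, adjusted p = 1.95e-09) and 5.98-fold (-2.58 ± 0.16, adjusted p = 5.14e-09). A further member of this kind, SLC25A23, fell by 0.53 and 0.77 on the log2 scale. MCU, the pore of the mitochondrial calcium uniporter, rose from 34.5 to 54.2 CPM to 184 to 209 and 159 to 191, or 4.53-fold and 3.99-fold.

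Amino acid carriers of mitochondria were mixed. SLC25A29, which carries basic amino acids, stood at 148, 208, 166 and 163 CPM in fresh cells, at 64.8, 61.3, 47.8 and 53.7 in DMEM/F12 spheroids and at 57.4, 58.5, 49.8 and 62.7 in incubation medium spheroids. It fell 3.00-fold in both, and no spheroid library reached the fresh range. Of the aspartate and glutamate exchangers, SLC25A12 fell 2.11-fold and 2.00-fold, from 19.1 to 22.1 CPM to 8.07 to 11.4 and 8.23 to 11.6, whereas SLC25A13 rose 1.99-fold and 1.67-fold, from 19.4 to 25.6 CPM to 40.4 to 48.3 and 30.8 to 43.2. The glutamate carrier SLC25A22 rose 1.26-fold and 1.79-fold and was 1.43-fold higher in incubation medium than in DMEM/F12 spheroids. Its DMEM/F12 call was lost without fresh replicate 2 (log2 0.32) or 3 (0.23), or DMEM/F12 replicate 2 (0.28) or 4 (0.33).

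Cofactor carriers moved as well. SLC25A39, which imports glutathione, rose from 43.3, 28.96, 31.0 and 29.2 CPM in fresh cells to 77.6, 84.6, 87.3 and 83.2 in DMEM/F12 spheroids and 104, 97.5, 111 and 100.1 in incubation medium spheroids. Its rise was 2.50-fold and 3.11-fold. SLC25A37, the mitochondrial iron importer mitoferrin-1, had 38.3, 46.1, 40.2 and 41.0 CPM in fresh cells, against 38.0, 40.8, 41.5 and 37.7 in DMEM/F12 spheroids and 66.9, 64.2, 54.6 and 71.6 in incubation medium spheroids. Here the incubation medium libraries alone stood apart, with a rise of 1.55-fold against fresh cells (log2 0.64 ± 0.094, adjusted p = 2.90e-05) and a 1.63-fold difference from DMEM/F12 spheroids (0.70 ± 0.093, adjusted p = 0.000109). SLC25A28, its close relative mitoferrin-2, fell by 0.53 and 0.37 on the log2 scale. The second call was lost without fresh replicate 4 (-0.28) or incubation medium replicate 3 (-0.32). It was also lost with no filter on low counts (-0.30, adjusted p = 0.0774) or whole counts only (-0.27, 0.0650).

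SLC25A26, the importer of the methyl donor S-adenosylmethionine, rose 1.47-fold in DMEM/F12 spheroids and 2.24-fold in incubation medium spheroids, from 4.70 to 8.04 CPM to 8.52 to 11.4 and 13.3 to 15.3. SLC25A32, the carrier of folate and FAD, fell 2.05-fold and 1.41-fold, from 7.199 to 10.5 CPM to 3.37 to 5.41 and 5.78 to 6.89. The second of these calls was lost without fresh replicate 1 (log2 -0.41) or 4 (-0.45), or incubation medium replicate 1 (-0.45) or 4 (-0.44). It was also lost with no filter on low counts (-0.44, adjusted p = 0.0713). SLC25A27, an uncoupling protein relative, fell from 15.3 to 20.4 CPM to 12.4 to 14.6 and 8.41 to 10.5. Carriers of citrate (SLC25A1), oxoglutarate (SLC25A11) and acylcarnitine (SLC25A20) passed no test, with log2 differences from fresh cells between -0.14 and 0.13. SLC25A48, chosen after its values were seen, had 2.78, 5.20, 2.43 and 13.7 CPM in fresh cells and at most 1.21 in spheroids; its log2 fall of -3.39 in DMEM/F12 spheroids was -2.61 without fresh replicate 4, and that of -3.50 in incubation medium spheroids was -2.72 without fresh replicate 4 and -4.26 without incubation medium replicate 4.

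**Figure D4:**
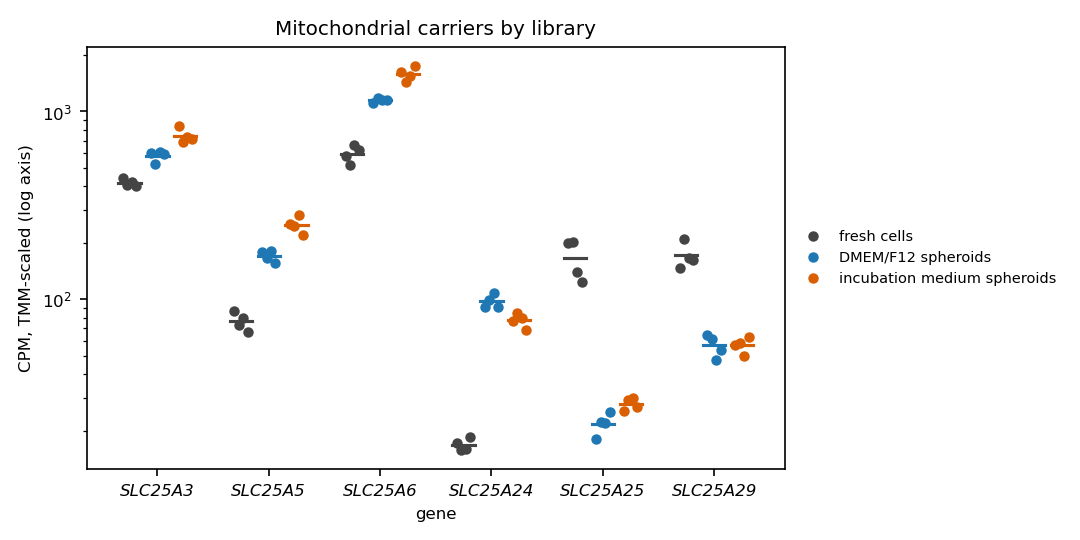
CPM (log axis) of 6 mitochondrial carriers in each library; points are the 4 libraries of a group and lines are group means. SLC25A3, SLC25A5 and SLC25A6 step up from fresh cells to DMEM/F12 to incubation medium spheroids, SLC25A24 rises 5.79-fold and 4.60-fold, and SLC25A25 and SLC25A29 fall in both spheroid groups.

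Of 20 tested carriers of the SLC35 families, 10 rose (50%, against 35.1% of all tested genes) and 1 fell (5%, against 35.7%) in DMEM/F12 spheroids. In incubation medium spheroids 11 rose (55%) and 3 fell (15%), against 35.8% of all tested genes each way. The median log2 fold changes were 0.56 and 0.51, beside -0.01 over all tested genes, and the group's difference from other genes was not tested. The UDP-galactose carrier of the Golgi, SLC35A2 (ENSSSCG00025070848), stood at 67.0, 55.1, 60.5 and 51.1 CPM in fresh cells, at 116, 91.7, 104 and 86.0 in DMEM/F12 spheroids and at 140.4, 126, 137 and 129 in incubation medium spheroids. It rose 1.70-fold and 2.28-fold, and the 3 groups did not overlap (log2 0.42 ± 0.10 between the media, adjusted p = 0.00865); its counts were not whole in 50% of the libraries. SLC35A3, the UDP-N-acetylglucosamine carrier, rose from 10.04 to 15.7 CPM to 22.8 to 35.9 and 26.8 to 40.6, or 2.30-fold and 2.75-fold. SLC35B4, which carries UDP-xylose and UDP-N-acetylglucosamine, rose from 3.13 to 6.92 CPM to 9.97 to 14.7 and 10.1 to 14.4, or 2.74-fold and 2.696-fold.

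SLC35B1, which brings ATP into the endoplasmic reticulum, stood at 56.9, 43.9, 50.7 and 37.04 CPM in fresh cells, at 105, 100.1, 113 and 93.9 in DMEM/F12 spheroids and at 103, 99.7, 117 and 82.6 in incubation medium spheroids. It rose 2.18-fold and 2.13-fold with no overlap with fresh cells. SLC35C1, the GDP-fucose carrier, rose 1.77-fold and 1.59-fold. SLC35A4 and SLC35F2 rose 2.63-fold and 2.44-fold in DMEM/F12 spheroids and 3.10-fold and 2.91-fold in incubation medium spheroids. SLC35E4, chosen after its values were seen, was at or under 3 counts in every fresh library and at 3.00 to 4.50 CPM and 2.15 to 3.32 CPM in spheroids, which is at least 6.57-fold and 4.98-fold higher. The genes called lower were SLC35A5 in both spheroid groups (log2 -0.43 and -0.37) and, in incubation medium spheroids, SLC35F3 (-1.27) and the sulfate donor carrier SLC35B2 (-0.27). These calls were weak: that of SLC35A5 was lost without fresh replicate 3 in both groups (-0.32 and -0.26) and, in incubation medium, without fresh replicate 1 (-0.36), incubation medium replicate 3 (-0.34) or 4 (-0.27). For SLC35F3 it was lost without fresh replicate 2 (-0.93), incubation medium replicate 1 (-1.08) or 3 (-0.99), and for SLC35B2 without incubation medium replicate 2 (-0.23) or 3 (-0.21). With no filter on low counts both SLC35A5 calls (-0.36 and -0.31) and the SLC35B2 call (-0.21) were lost too. Between the media SLC35F3 differed by -0.88 ± 0.44 (adjusted p = 0.162, and 0.0167 with the replicate block).

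Between the media 30 of the 116 tested carriers were called (25.9%, against 25% of all tested genes), 18 higher in incubation medium spheroids (15.5%, against 12.7%) and 12 lower (10.3%, against 12.3%). Scaling by library totals in place of TMM gave 13 higher and 15 lower, so this split depends on the scaling. Only 7 of these carriers differed 2-fold or more (6.03% of the tested carriers, against 5.44% of all tested genes). Of them 3 were higher (2.59% of the tested carriers, against 2.06%) and 4 lower (3.45%, against 3.38%). The groups did not overlap for 30 carriers (25.9%, against 27% of all tested genes). Of 35 tested mitochondrial carriers 9 were called higher (25.7%) and 3 lower (8.57%), and of 13 ion carriers 0 (0%) and 4 (30.8%). Metal carriers gave 2 and 2 of 16 (12.5% each) and sugar carriers 1 and 1 of 11 (9.09% each). Carboxylate and fatty acid carriers gave 2 and 1 of 11 (18.2% and 9.09%). Vitamin, nucleoside and choline carriers gave 2 and 1 of 10 (20% and 10%), and SLC35 carriers 2 and 0 of 20 (10% and 0%). Among all tested genes 12.7% were higher and 12.3% lower, and whether a role differs from other genes was not tested. The sizes ran from -2.25 for SLC30A1 to 1.61 for SLC16A3 on the log2 scale. The second of these calls was lost in 5 of 21 alternative settings, as given above. Calls for the ion carriers SLC4A4 and SLC12A7, the zinc carriers SLC39A7 and SLC39A11 and the nucleoside carrier SLC29A3 were lost in some alternative settings, also given above. The call for SLC25A39 (0.31) was lost in 11 of 20 alternative settings, among them each fit without a DMEM/F12 or an incubation medium library (0.28 to 0.34) and the fit without fresh replicate 3 (0.32). That for SLC25A32 (0.54) was lost in 13 of 20, among them the fits without fresh replicate 2 or 4, DMEM/F12 replicate 2, 3 or 4, or incubation medium replicate 1, 2 or 3 (0.43 to 0.58).

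**Figure D5:**
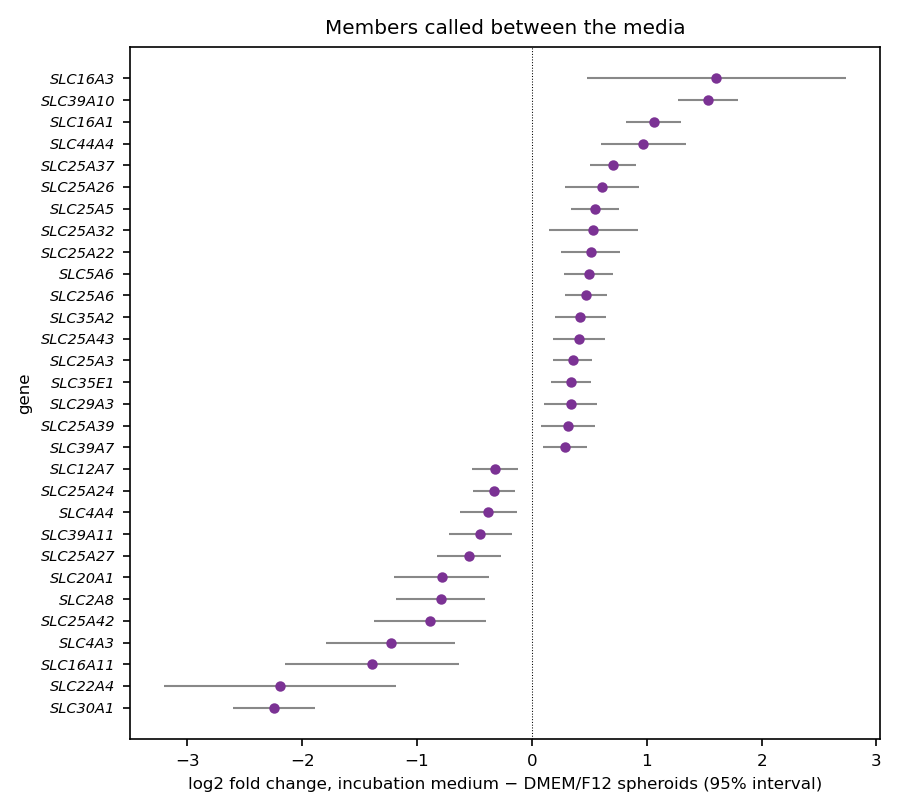
Log2 fold changes of the 30 carriers called between incubation medium and DMEM/F12 spheroids, with 95% intervals; values right of 0 are higher in incubation medium. SLC39A10 and SLC16A1 lie above 1 with narrow intervals, SLC16A3 has a wide one (0.48 to 2.73), and SLC30A1 lies at -2.25.

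Across the list of partner genes that act with these carriers, 25 of 33 were tested. Against fresh cells 16 rose and 6 fell in each spheroid group, where 35.1% of all tested genes were higher and 35.7% lower in DMEM/F12 spheroids and 35.8% each way in incubation medium spheroids. Their median log2 fold changes were 0.56 in DMEM/F12 and 0.47 in incubation medium spheroids. Between the media 9 were higher and 6 lower in incubation medium, against 12.7% and 12.3% of all tested genes. Among those not yet named, EMB, a partner protein of monocarboxylate carriers, fell 1.89-fold in DMEM/F12 spheroids and was 2.02-fold higher in incubation medium than in DMEM/F12 spheroids. The subunits of the mitochondrial pyruvate carrier, MPC1 and MPC2, fell by 0.27 and 0.26 on the log2 scale in DMEM/F12 spheroids, while in incubation medium spheroids MPC1 fell by 0.18 (adjusted p = 0.0457) and MPC2 rose by 0.23 with overlapping libraries (adjusted p = 0.0172). VDAC1, the main pore of the outer mitochondrial membrane, rose 1.92-fold and 2.25-fold, and HIF1A, the oxygen-sensitive factor that drives glucose and lactate carriers, rose 1.71-fold and 1.38-fold.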

How the data were processed

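Polyadenylated RNA of 12 libraries was primed with oligo-dT, tagmented and amplified, per the labels' protocols. The submitters' processing notes list fastp 0.24.0, STAR 2.7.11, SAMtools 1.22.1 and featureCounts from Subread 2.1.1; the genome build and annotation are not given in the sources used here. The values the authors deposited are expected counts, per the file headers and because many are fractions: 57.8% of the tested genes and 53.4% of the tested carriers had such a value in 1 or more libraries, where reads had been shared between features. Each expected count was rounded for the model. A second set of columns that the authors deposited is CPM, per the file headers, equal to counts over library totals to within 4.98e-06; these were not used. The 92 spike-in rows, at most 0.000614% of a library, were left out. Symbols come from the deposited table (56.5% of gene rows have none); 0 of the 150 carrier identifiers but all 149 symbols were in the available pig gene tables, so no positions are given.

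Tests were made with edgeR 4.0.16 (R 4.3.3), with the gene filter of filterByExpr, TMM scaling, a mean for each group over all 12 libraries, quasi-likelihood F tests and Benjamini-Hochberg adjustment over 14070 genes, called at 0.05. The standard error is the log2 fold change over the square root of F. Printed CPM values use unrounded counts over TMM-scaled library sizes, and fold changes are the fitted ones. Tests compare values within a gene. CPM also served to choose which carriers to name and for sums over carriers, and no levels are ranked between genes. The floor of 3 counts is the limit that a count of 0 allows; floors cover counting error only. Replicates differed by more than sampling noise (chi-square over its degrees of freedom 5.61 to 16.1), with a biological coefficient of variation of 0.146. The labels number the replicates 1 to 4 in each group without saying what a number shares. Deviations from the group means correlated at 0.196 to 0.516 for the 12 same-numbered pairs and at -0.318 to 0.0233 for the other 36. Same-numbered libraries were thus more alike, and the main fit left this pairing out. Standard errors, intervals and adjusted p-values are from the main fit unless another fit is named. A replicate block was fitted as an alternative, and its value is given where it changes a carrier's call. Between the media it called 32.8% of all tested genes, against 25% in the main fit.

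Carriers were named if called, at a mean of at least 5 CPM over the 8 libraries compared and without overlap, the 10 largest changes each way in each comparison, plus a fixed list and the 2 carriers with the highest mean CPM of each role; others are named to spell out a count or a role, after their values were seen. SLC4A7, SLC12A2, SLC26A6, SLC11A2, SLC19A1 and SLC35A1, on the fixed list, are not analysed here: none had a tested row under its symbol. A few genes that were tested and counted are not reported here by name. The members, roles, partner genes and marker lists were chosen with earlier results of these data known. Alternatives were other scalings, low-count filters, DESeq2 1.42.0, thinning to the smallest library, genes with whole counts only, the replicate block, and leaving out each library. Simulated data took each gene's mean over all libraries and changed only a small set of genes in DMEM/F12 spheroids. The fit for DMEM/F12 spheroids against fresh cells (14070 genes) recovered 79% of 2-fold and 92% of 4-fold changes in that set. Far more genes were called in the data than were changed in the simulation, so these shares may not hold for the data.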

Additional observations from a re-analysis of the deposited data

Results flagged for a closer look

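In 7 of 150 groups of 4 libraries (4.67%), 1 library stood far from the other 3 relative to the group's range; chance alone gives about 1 in 20 such groups. SLC12A7 was highest in fresh replicate 4 (78.2 CPM, others 71.6 to 71.7). SLC25A39 was highest in fresh replicate 1 (43.3 CPM, others 28.96 to 31.0). SLC2A1 was lowest in DMEM/F12 replicate 4 (73.2 CPM, others 131 to 136). SLC39A11 was highest in fresh replicate 3 (63.4 CPM, others 45.2 to 46.4), as was SLC4A3 (16.8 CPM, others 8.23 to 9.15). SLC44A1 was highest in fresh replicate 4 (292 CPM, others 255 to 261). SLC44A4 was highest in DMEM/F12 replicate 1 (193 CPM, others 122 to 123).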

How the results depend on the processing

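The numbers of carriers called kept within 1.5 times of the values above under 120 of 126 alternatives. The other 6 come from testing only genes whose counts were whole in every library, which left 54 carriers: 21 higher and 14 lower for DMEM/F12 spheroids, 27 and 13 for incubation medium spheroids, and 7 and 5 between the media. In the same order this fit called 64.8%, 74.1% and 22.2% of the carriers it tested, against 70.4%, 71.7% and 22.6% of all genes it tested. Under it the carriers' median log2 fold change moved from 0.30 to 0.099 for DMEM/F12 spheroids and from 0.28 to 0.37 for incubation medium spheroids. With the replicate block 53 rose and 32 fell for DMEM/F12 spheroids, and 57 and 32 for incubation medium spheroids. Between the media 18 were higher and 15 lower. The block lost no carrier and added 3 in each comparison. In the same order it called 73.3%, 76.7% and 28.4% of the tested carriers, against 74.4%, 75.3% and 32.8% of all tested genes. For single carriers 138 alternatives lost a call, 24 gained one, and 42 reversed a direction, each time of a difference that was not called; the cause was not tested. On the log2 scale, SLC25A37 in DMEM/F12 spheroids turned to 0.00809 with library totals, 0.00505 with no filter and 0.0102 with whole counts only. SLC12A7 there turned to -0.0238 with a mean of at least 10 counts, -0.000684 with the replicate block and -0.0608 with thinning, and ran from -0.0829 to 0.0679 with 1 library left out. SLC30A3 in incubation medium spheroids turned to 0.0203 with no filter and 0.0482 with whole counts only, and ran from -0.113 to 0.0213 with 1 library left out. Between the media, library totals gave -0.0360 for SLC27A4, -0.0231 for SLC25A12, -0.0947 for SLC25A29, -0.0215 for SLC19A2 and -0.0254 for SLC30A3. Thinning gave -0.00144 for SLC27A4 and -0.0659 for SLC25A29, for which no filter gave -0.00857 and a mean of at least 10 counts -0.000365. With 1 library left out the values between the media ran from -0.0959 to 0.146 for SLC27A4, -0.320 to 0.339 for SLC40A1, -0.388 to 0.298 for SLC5A1, -0.0701 to 0.0721 for SLC25A29, -0.121 to 0.0731 for SLC35B4, -0.0301 to 0.231 for SLC19A2, -0.693 to 1.07 for SLC26A4 and -0.112 to 0.0548 for SLC35B1. Genes near 3 counts, such as SLC26A4, SLC11A1 and SLC35E4, are limited by depth.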
